A study of Mus musculus with 8 samples.

Results

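The genes described here are 10 components of the circadian clock, out of 55385 genes in the deposited tables: Arntl, Clock, Per1, Per2, Per3, Cry1, Cry2, Nr1d1, Nr1d2 and Dbp. They were chosen by gene name, with the iKO and WT values of clock genes in these same libraries already known, so their values in that contrast are a description and carry no p-value here. The libraries, 4 per group, came from neural stem and progenitor cells (NSPCs) that were sorted out of mouse cortex at postnatal day 7. The WT mice were Nestin-CreERT2; tdTomato. The iKO mice were Nestin-CreERT2; Ash2lf/f; tdTomato, so both groups carried the recombinase and the reporter, and iKO alone carried the floxed Ash2l alleles. CreERT2 is a recombinase that tamoxifen activates, here in cells in which the Nestin promoter is active. No source used here gives the age at tamoxifen treatment, the hour of the day at collection or whether a library came from a single animal. Every library held both the Y-linked transcript Ddx3y and Xist, expressed from the inactive X chromosome, so each probably mixed animals of both sexes. The p-values below therefore rest on library-to-library spread alone, and that spread may be technical. ASH2L is a core subunit of the enzyme complexes that methylate histone H3 at lysine 4, a mark of active promoters.

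The clock is a feedback loop of transcription. ARNTL (also called BMAL1) pairs with CLOCK on DNA sites called E-boxes and activates the Per, Cry, Nr1d and Dbp genes; the PER and CRY proteins then enter the nucleus and block that pair. In an interlocked loop, NR1D1 and NR1D2 (REV-ERB alpha and beta) repress Arntl through sites that the ROR proteins activate, and DBP acts through D-boxes, so that Arntl and its targets peak at opposite times of day in tissues that keep time. In the mature brain the loop runs in neurons and astrocytes, and Per1 also responds within the hour to cAMP signalling and to glucocorticoids.

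Promoter sequence from RefSeq (GRCm38.p6) was matched to 9 of the 10 genes by symbol. Windows ran from 250 bases before to 50 bases after each annotated start site, and some genes have several. The letters searched, on both strands, were CACGTG (E-box), CACGTT (an E-box variant), TAGGTCA (core of the ROR and REV-ERB site), TTATGTAA and TTACGTAA (D-box forms) and TGACGTCA (cAMP response element). The E-box and its variant differ in the last base, so no site counts as both in the same reading. The stretches below are those of the members in which a match lies upstream of the start site, in capitals. They are shown because clock proteins act through sites of these kinds. Whether any of these matches is bound was not tested. AACGTG is CACGTT on the other strand. None of the stretches overlaps an exon in the GENCODE M21 annotation; that of Per1 lies inside the Per1 gene body and that of Per3 inside the Camta1 gene body.
Per1, chr11:69098743-69098828, plus strand: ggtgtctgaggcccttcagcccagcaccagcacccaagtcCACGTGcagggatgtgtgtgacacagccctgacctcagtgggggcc
Cry1, chr10:85185069-85185173, minus strand: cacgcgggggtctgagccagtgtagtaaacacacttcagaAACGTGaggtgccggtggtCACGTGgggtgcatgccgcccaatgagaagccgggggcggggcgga
Cry2, chr2:92434190-92434275, minus strand: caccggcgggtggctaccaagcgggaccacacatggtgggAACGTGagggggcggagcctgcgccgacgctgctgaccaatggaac
Nr1d1, chr11:98775378-98775445, minus strand: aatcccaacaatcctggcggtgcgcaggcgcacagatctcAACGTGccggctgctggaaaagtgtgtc
Per3, chr4:151044776-151044910, minus strand: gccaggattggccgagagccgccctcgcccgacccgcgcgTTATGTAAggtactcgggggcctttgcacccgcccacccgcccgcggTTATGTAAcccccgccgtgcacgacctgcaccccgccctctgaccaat

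Counted from the start site, the first base of the E-box lies at -166 in Per1 and at -60 in Cry1. That of the variant lies at -79 in Cry1, -166 in Cry2 and -28 in Nr1d1. Per3 holds D-boxes at -205 and -158, and Arntl holds the ROR and REV-ERB core at 31, downstream of 1 of its start sites. Over all 32851 promoter windows, 7.15% held the E-box, 4.68% its variant, 2.61% the ROR and REV-ERB core, 0.94% the D-box as in Per3, 0.12% the other D-box form and 1.79% the cAMP response element. The last 2 were found in no window of a member. No match was found in the windows of Clock, Nr1d2 or Dbp, which says only that these letters are not in those windows.

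Values are in TPM, a share of all transcripts that takes gene length into account, so levels can be set side by side between genes. Each library summed to 1000000 TPM, so its sequencing depth is unknown, and it held 16089 to 16616 genes at 1 TPM or more. Ash2l (ENSMUSG00000031575.18), the targeted gene, stood at 18.1, 16.1, 19.2 and 17.2 TPM in WT replicates 1 to 4 and at 7.54, 6.11, 7.69 and 7.18 TPM in iKO replicates 1 to 4. Markers of the labelled cell type were present in both, with Nes at 59.6 TPM in WT and 70.6 TPM in iKO and Sox2 at 7.14 and 7.48 TPM. Both groups held transcripts of other cell types than NSPCs, and their levels differed with genotype. The sum of 11 endothelial markers was 528 to 544 TPM in WT and 915 to 981 TPM in iKO, with 10 called higher. The sum of 7 red blood cell markers was 70.0 to 81.1 TPM in WT and 721 to 840 TPM in iKO, with all 5 tested called higher. The sum of 10 astrocyte markers was 6422 to 6622 TPM in WT and 4352 to 4541 TPM in iKO, with 8 called lower and 1 higher. The sum of 10 microglia markers was 730 to 782 TPM in WT and 611 to 635 TPM in iKO, with 7 called lower and 1 higher. Of 11 stem cell and radial glia markers, 10 were tested, 2 called higher and 5 lower, at sums of 4407 to 4504 TPM in WT and 3643 to 3725 TPM in iKO. Neuroblast markers were called higher in 9 of 11 cases and lower in 2, at 2270 to 2319 TPM in WT and 2393 to 2468 TPM in iKO. Of 9 oligodendrocyte lineage markers, 8 were tested, 3 called higher and 4 lower, at 1742 to 1760 TPM in WT and 1752 to 1833 TPM in iKO. Of all tested genes, 31.9% were called lower and 20.7% higher. None of these markers was at 0 throughout a group. Single abundant markers weigh heavily in these sums. From WT to iKO, Slc1a3 went from 2039 to 1241 TPM in the stem cell sum, while Fabp7 went from 664 to 925 TPM. Olig1, at 1492 and 1516 TPM, made up most of the oligodendrocyte sum, while Mbp went from 49.2 to 99.1 TPM. Hba-a1, in the red blood cell sum, went from 21.3 to 519 TPM. Agt, in the astrocyte sum, went from 726 to 62.8 TPM, and Cldn5, in the endothelial sum, from 335 to 627 TPM. The Y-linked gene Ddx3y stood at 49.5 to 56.8 TPM in WT and 22.5 to 24.8 TPM in iKO, a log2 fold change of -1.15, and Xist, expressed from the inactive X chromosome, at 15.4 to 16.9 TPM in WT and 18.9 to 20.1 TPM in iKO, a log2 fold change of 0.26. The part of these differences in the clock values was not tested.

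All 10 clock transcripts had a lower mean in iKO than in WT, and for 9 of them every iKO library lay below every WT library. The iKO mean ranged from 50.8% of the WT mean, for Nr1d1, to 86.7%, for Clock. Summed over the 10 genes, the level was 307 ± 7.18 TPM in WT and 214 ± 5.39 TPM in iKO (SD, n = 4). In a bulk sample, fewer cells that express a gene and less RNA of it per cell cannot be told apart.

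**Figure D1:**
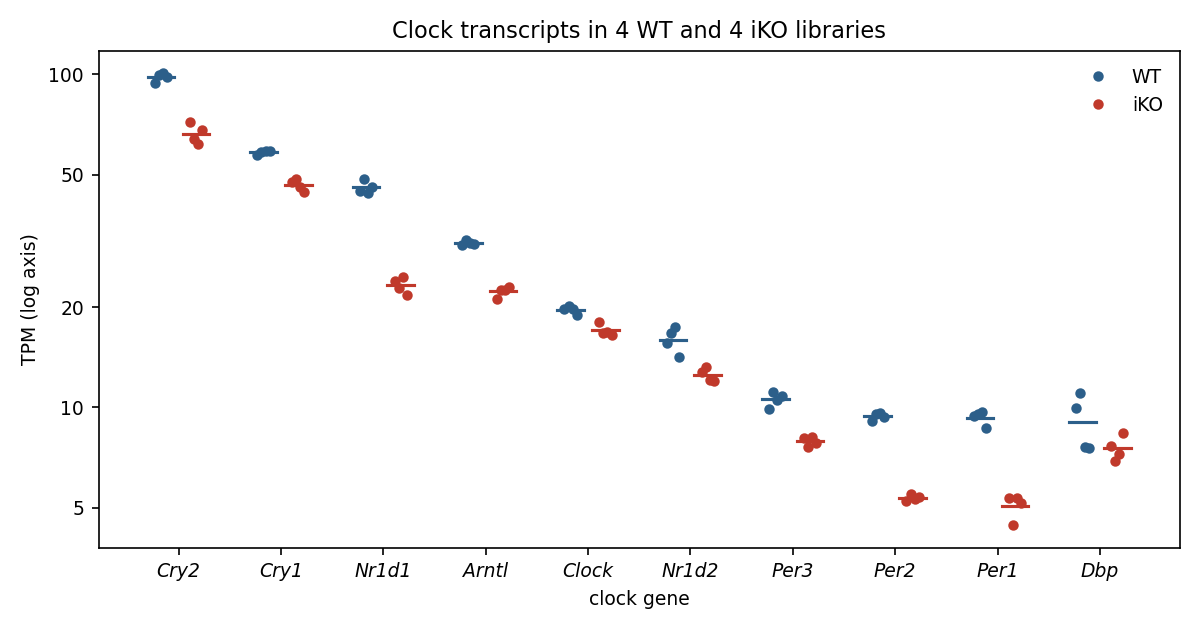
Level of each clock gene in TPM (vertical log axis) in 4 WT (blue) and 4 iKO (red) libraries; each point is a library and each bar the group mean, with genes ordered by their WT mean. The groups are separate for 9 genes, from Cry2 at the left (98.1 TPM in WT and 66.3 TPM in iKO) to Per1, and overlap for Dbp.

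Arntl and Clock encode the activating pair. Arntl (ENSMUSG00000055116.8) stood at 30.7, 31.7, 31.2 and 31.0 TPM in WT replicates 1 to 4 and at 21.2, 22.6, 22.5 and 23.0 TPM in iKO replicates 1 to 4. Every iKO library was lower, by at least 7.74 TPM, and the difference of mean log2(TPM + 1) was -0.46 (SE 0.0261). Clock (ENSMUSG00000029238.11), a histone acetyltransferase as well as a DNA-binding factor, stood at 19.7, 20.2, 19.7 and 18.9 TPM in WT and at 18.02, 16.8, 16.9 and 16.4 TPM in iKO. Its groups were closer together, with 0.913 TPM between the lowest WT and the highest iKO library, and the difference was -0.20 (SE 0.0326). The authors' deposited table gave log2 fold changes of -0.38 (SE 0.0504) for Arntl and -0.13 (SE 0.0428) for Clock.

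The 3 Per genes encode the proteins that carry the repressing complex. Per1 (ENSMUSG00000020893.17) stood at 9.40, 9.55, 9.66 and 8.67 TPM in WT replicates 1 to 4 and at 5.35, 4.43, 5.33 and 5.16 TPM in iKO replicates 1 to 4. Per2 (ENSMUSG00000055866.9) stood at 9.13, 9.52, 9.61 and 9.34 TPM in WT and at 5.25, 5.50, 5.31 and 5.38 TPM in iKO. Both were near 9 TPM in WT and near 5 TPM in iKO, with differences of -0.77 (SE 0.0621) for Per1 and -0.71 (SE 0.0194) for Per2 on the log2(TPM + 1) scale. Per3 (ENSMUSG00000028957.12) stood at 9.91, 11.1, 10.5 and 10.8 TPM in WT and at 8.09, 7.63, 8.15 and 7.83 TPM in iKO, a difference of -0.38 (SE 0.0377). The iKO mean of Per3 was 74.8% of WT, against 54.3% for Per1 and 57.0% for Per2. The authors' deposited table gave -0.87 for Per1, -0.75 for Per2 and -0.50 for Per3.

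The Cry genes encode the partners of PER that inhibit CLOCK and ARNTL directly, and they were the most abundant members. Cry2 (ENSMUSG00000068742.11) stood at 94.0, 99.6, 101 and 97.9 TPM in WT replicates 1 to 4 and at 71.9, 63.8, 61.7 and 68.0 TPM in iKO replicates 1 to 4. Cry1 (ENSMUSG00000020038.10) stood at 57.1, 58.4, 58.8 and 58.9 TPM in WT and at 47.6, 48.5, 45.7 and 44.3 TPM in iKO. Every iKO library was lower for both, by a difference of -0.56 (SE 0.0529) for Cry2 and -0.32 (SE 0.0306) for Cry1 on the log2(TPM + 1) scale. The authors' deposited table gave -0.48 and -0.24.

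Nr1d1 and Nr1d2 encode the nuclear receptors that repress Arntl. Nr1d1 (ENSMUSG00000020889.11) stood at 44.7, 48.6, 44.1 and 46.0 TPM in WT replicates 1 to 4 and at 23.9, 22.8, 24.6 and 21.7 TPM in iKO replicates 1 to 4. This was the largest difference among the 10 genes on the log2(TPM + 1) scale, at -0.95 (SE 0.0487), and 2.82% of all tested genes had a lower fold change. Nr1d2 (ENSMUSG00000021775.11) stood at 15.6, 16.7, 17.5 and 14.1 TPM in WT and at 12.7, 13.2, 12.1 and 11.97 TPM in iKO. Its groups did not overlap either, but only 0.913 TPM lay between them, and the difference was -0.33 (SE 0.0696). The authors' deposited table gave -0.91 for Nr1d1 and -0.25 for Nr1d2.

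Dbp, a transcription factor gene often read as an output of the clock, was the exception. Dbp (ENSMUSG00000059824.12) stood at 9.96, 11.1, 7.61 and 7.56 TPM in WT replicates 1 to 4 and at 7.64, 6.89, 7.23 and 8.39 TPM in iKO replicates 1 to 4. WT replicates 1 and 2 were above every iKO library, while WT replicates 3 and 4 lay within the iKO range, and the difference was -0.22 (SE 0.136), or -0.13 without WT replicate 2. Its coefficient of variation in WT was 19.4%, against 1.33% to 8.999% in either group for the other 9 genes. The authors' deposited table gave -0.30 (SE 0.161) and a mean normalized signal of 74.6, against 278 to 1834 for the other 9 genes.

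All 10 genes passed the low-value filter of the fit across all genes, which asked for 1 TPM or more in 4 or more libraries. In that fit 9 of the 10 were called lower in iKO and Dbp was not called, where 52.6% of the 16413 tested genes were called in all, 31.9% lower and 20.7% higher. The groups were separate, with iKO the lower, for 9 of the 10 and for 29.9% of tested genes. In the authors' deposited table the same 9 genes passed an adjusted p of 0.05 as lower, as did 16.7% of the 29438 genes with a fold change there. Because the members were proposed with this contrast known, nothing is read from these counts. The median log2 fold change was -0.42 over the 10 genes and -0.06 over all tested genes. With trimmed mean of M values factors or quantile normalization the share of called genes that were higher moved from 39.3% to 50.04% or 49.7%, and all 10 clock genes still had a negative fold change, from -0.89 to -0.13 and from -0.91 to -0.11.

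**Figure D2:**
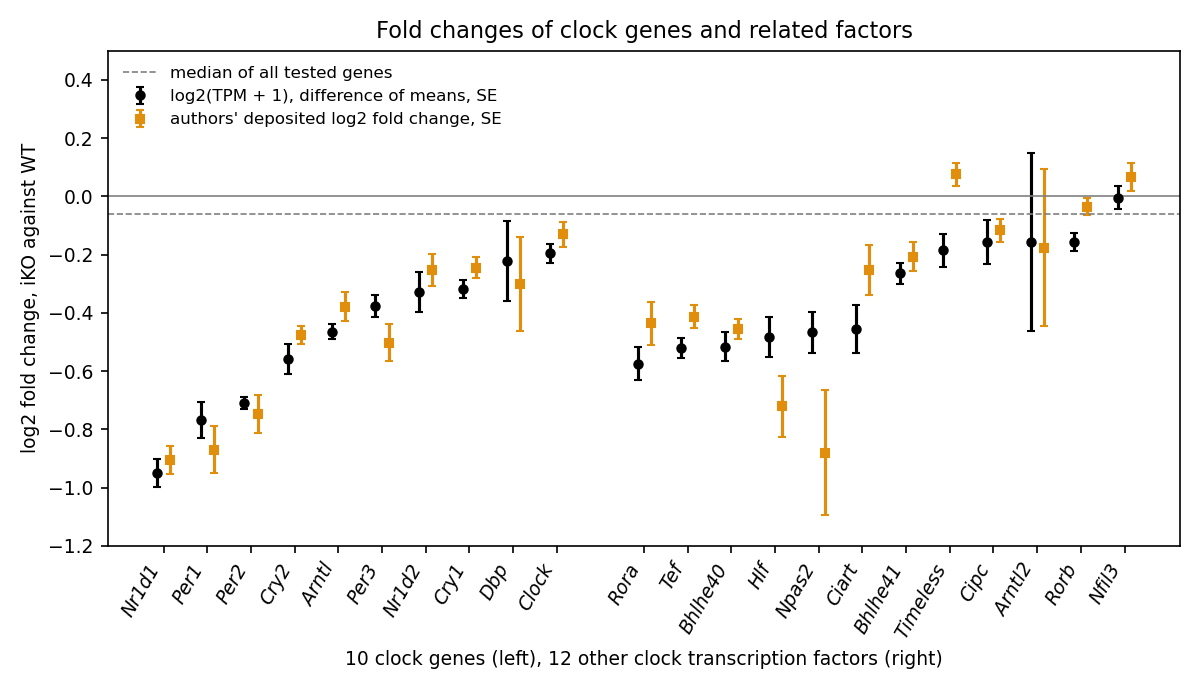
Log2 fold change of iKO against WT for the 10 clock genes (left) and 12 other clock transcription factors (right). Black points are differences of mean log2(TPM + 1) and orange squares the authors' deposited values, each with its SE; the dashed line marks the median of all tested genes, -0.06. The clock genes run from -0.95 (Nr1d1) to -0.20 (Clock) in black.

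The 2 scales differed by -0.125 to 0.0859 for the members, taken as the authors' value minus the TPM value. Unstranded reads from overlapping exons cannot be assigned to a strand, and in the GENCODE M21 annotation 4 members share exonic bases with a gene on the opposite strand. Dbp shares 539 of its 2993 exonic bases with Sphk2, the largest share among these 4 members. Sphk2 stood at 35.3 TPM in WT and 34.8 TPM in iKO, above Dbp itself at 9.05 and 7.54 TPM. Nr1d1 shares 263 bases, 8.5% of its exons, with the thyroid hormone receptor gene Thra, at 104 and 95.5 TPM, Cry2 4.7% of its exons with D930015M05Rik, at 1.01 and 0.289 TPM, and Arntl 0.4% with Gm45355, listed at 0. The values of Dbp and Nr1d1 are uncertain to that extent, since no source used here says that the counting used strand.

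The order of levels was almost the same in both groups. In WT it ran from Cry2 (98.1 TPM) through Cry1 (58.3), Nr1d1 (45.8), Arntl (31.1), Clock (19.6), Nr1d2 (16.0), Per3 (10.6), Per2 (9.40) and Per1 (9.32) to Dbp (9.05 TPM). The ranges of Per2, Per1 and Dbp overlapped their neighbours in that order and all other neighbours were separate. In iKO, Nr1d1 (23.3 TPM) and Arntl (22.3 TPM) were no longer separate, and Dbp (7.54 TPM) came to lie above Per2 (5.36 TPM) and Per1 (5.07 TPM), overlapping Per3 (7.93 TPM).

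The members were not lower by a common factor. The TPM of Nr1d1 over that of Nr1d2 was 2.86, 2.91, 2.53 and 3.25 in WT replicates 1 to 4 and 1.88, 1.73, 2.04 and 1.81 in iKO replicates 1 to 4. Nr1d1 over Arntl, a repressor over its target, was 1.47 ± 0.0491 in WT and 1.05 ± 0.0837 in iKO (SD, n = 4). Both ratios were lower in every iKO library, as were Per1 over Per3 (0.881 ± 0.0645 and 0.638 ± 0.0389) and Arntl over Clock (1.59 ± 0.0339 and 1.31 ± 0.0957). Cry1 over Cry2 went the other way, at 0.595 ± 0.0115 in WT and 0.704 ± 0.0549 in iKO, again without overlap. Only Per1 over Per2, among the 6 ratios computed, overlapped between groups, at 0.992 ± 0.0438 and 0.946 ± 0.0979. How often ratios of other gene pairs are separate between the groups was not computed, so nothing is read from this count.

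A timekeeping cell moves Arntl and the Per, Nr1d and Dbp transcripts in opposite directions over the day, so these limbs were also compared per library. The mean log2(TPM + 1) of Arntl and Clock was 4.69 ± 0.0249 in WT and 4.36 ± 0.00265 in iKO, and that of Per1, Per2, Per3, Nr1d1, Nr1d2 and Dbp was 3.87 ± 0.0676 in WT and 3.31 ± 0.0278 in iKO (SD, n = 4). Both limbs were thus lower in every iKO library, and the target limb more so. Their difference was 0.814, 0.757, 0.831 and 0.861 in WT replicates 1 to 4 and 1.02, 1.08, 1.03 and 1.04 in iKO replicates 1 to 4. The groups did not overlap in it, and their means differed by 0.229, from 0.0950 when Clock was left out to 0.364 when Arntl was left out. The difference between the limbs was computed with a pseudocount of 1 alone, and its size on another scale was not tested. Without Clock, so for Arntl alone against its targets, the groups overlapped, at 1.07 to 1.20 in WT and 1.13 to 1.29 in iKO; they stayed separate when any other of these genes was left out.

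**Figure D3:**
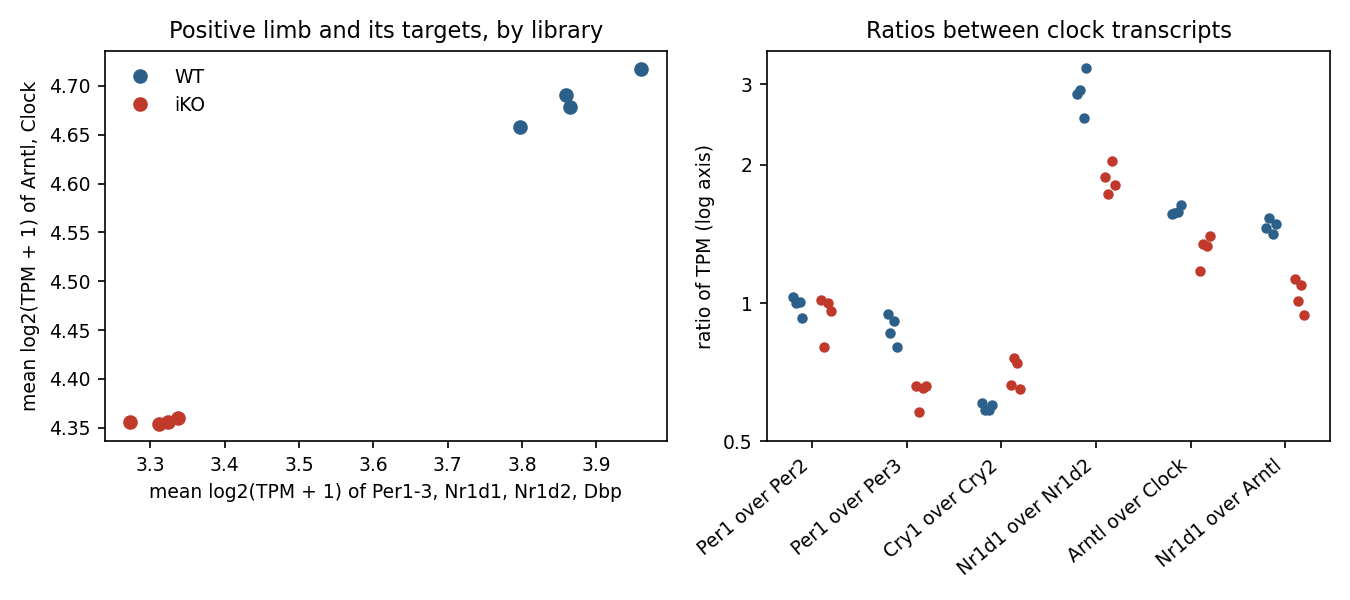
Left, mean log2(TPM + 1) of Arntl and Clock against that of Per1, Per2, Per3, Nr1d1, Nr1d2 and Dbp, 1 point per library, WT in blue and iKO in red; the iKO libraries lie lower on both axes. Right, 6 ratios of TPM per library on a log axis; Nr1d1 over Nr1d2 lies at 2.53 to 3.25 in WT and 1.73 to 2.04 in iKO.

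Across the 8 libraries, the tested genes outside the 10 whose centred log2(TPM + 1) profile lay nearest to Arntl by Euclidean distance were Nr4a1 (0.0535), Nim1k (0.0727) and Nfatc1 (0.0732), where the median gene lay at 0.724. Their means were 102, 34.1 and 7.97 TPM in WT and 74.4, 24.0 and 5.54 TPM in iKO. The genes nearest to Dbp were farther from it, at 0.198 for Fat1, 0.214 for Spaca1 and 0.233 for Gm17055.

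The other transcription factors of the loop were compared next, from a list of 12 genes, all of which were tested. This list and the 5 below were chosen with earlier results of these data known. Their counts and p-values are therefore a description. In limma's moderated test with Benjamini-Hochberg adjustment over all tested genes, 9 fell, none rose and 3 did not pass, at a median log2 fold change of -0.36. Of all tested genes, 31.9% fell. Npas2 passed the filter through its WT libraries alone, with every iKO library below 1 TPM. Without Npas2, 8 of 11 fell.

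Among the ROR factors, which activate Arntl, Rora stood at 14.7, 14.7, 13.9 and 13.05 TPM in WT replicates 1 to 4 and at 9.40, 8.29, 9.39 and 9.47 TPM in iKO replicates 1 to 4. It fell in every iKO library, by 0.57 on the log2 scale (SE 0.0616, adjusted p = 6.87e-05). Rorb fell from 25.8 ± 1.02 to 23.0 ± 0.521 TPM (SD, n = 4; limma adjusted p = 0.0103), but did not pass with trimmed mean factors (adjusted p = 0.0804), with quantile normalization (adjusted p = 0.0707) or in the authors' deposited table, at -0.04 (adjusted p = 0.375).

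Tef and Hlf, which share the D-box with Dbp, both fell. Tef stood at 34.5, 36.8, 34.9 and 37.4 TPM in WT and at 24.0, 25.7, 24.8 and 24.4 TPM in iKO, a log2 fold change of -0.52 (SE 0.0405, limma adjusted p = 9.91e-06). Hlf stood at 4.48, 4.14, 3.64 and 4.50 TPM in WT and at 2.47, 2.64, 2.80 and 2.92 TPM in iKO, a log2 fold change of -0.48 (SE 0.0824, limma adjusted p = 0.00114). Unlike Dbp, neither overlapped between groups. Nfil3, the repressor that competes for the same site, was at 41.8 ± 2.10 TPM in WT and 41.6 ± 1.03 TPM in iKO (SD, n = 4) and did not pass (limma adjusted p = 0.945).

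Further repressors of CLOCK and ARNTL fell as well. Bhlhe40 (DEC1) stood at 62.1, 68.9, 68.3 and 68.7 TPM in WT and at 45.2, 44.4, 49.5 and 47.0 TPM in iKO, a log2 fold change of -0.52 (SE 0.0474, limma adjusted p = 2.62e-05). Its relative Bhlhe41 (DEC2) fell from 14.1 ± 0.657 to 11.6 ± 0.291 TPM (SD, n = 4; limma adjusted p = 0.00167). Ciart, also called CHRONO, has E-boxes at -116, -58 and -44 from its start site, the most in a searched window of a member or of these factors. The windows searched cover 9 of the 10 members and 11 of the 12 factors, without Per2 and Bhlhe40. The stretch that holds them is shown beside its values, with 23 of its bases inside annotated Ciart exons.
Ciart, GRCm38.p6 chr3:95882229-95882384, minus strand: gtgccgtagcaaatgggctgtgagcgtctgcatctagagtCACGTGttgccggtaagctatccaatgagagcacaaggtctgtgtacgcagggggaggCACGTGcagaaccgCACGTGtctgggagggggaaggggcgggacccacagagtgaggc

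Ciart stood at 29.5, 28.9, 34.7 and 26.5 TPM in WT and at 22.5, 20.6, 21.8 and 20.9 TPM in iKO, a log2 fold change of -0.46 (SE 0.0759, limma adjusted p = 0.000991), against -0.25 in the authors' deposited table. Cipc stood at 34.7 ± 2.79 and 31.0 ± 2.20 TPM (SD, n = 4) in WT and iKO and did not pass (limma adjusted p = 0.0825), though it did in the authors' deposited table (adjusted p = 0.00781). Timeless, a replication and clock protein gene, fell from 45.4 to 39.9 TPM (limma adjusted p = 0.0176), did not pass with trimmed mean factors (adjusted p = 0.0931), and had the opposite sign in the authors' deposited table, at 0.08. Npas2, the paralogue that can replace CLOCK, averaged 1.37 ± 0.216 TPM in WT and 0.709 ± 0.0431 TPM in iKO (SD, n = 4). It was tested only because its WT libraries passed the filter, so no p-value is given for it. Arntl2 stood at 2.20 ± 1.19 TPM in WT and 1.80 ± 0.641 TPM in iKO and did not pass (limma adjusted p = 0.646).

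Enzymes that mark clock proteins for activity or destruction were called at shares near those of all tested genes, of which 31.9% fell and 20.7% rose. Of 15 kinase and ubiquitin ligase genes, 14 were tested, 2 rose, 4 fell and 8 did not pass, at a median of -0.05, while trimmed mean factors gave 3 higher and 3 lower, and the authors' deposited table gave 5 higher and 4 lower. Csnk1d, a casein kinase that phosphorylates PER, fell from 85.7 ± 2.85 to 65.1 ± 2.14 TPM (SD, n = 4; limma adjusted p = 2.32e-05), while Csnk1e stood at 98.3 and 105 TPM in WT and iKO and did not pass (limma adjusted p = 0.0857). The authors' deposited table gave 0.36 for Csnk1e, with an adjusted p of 1.91e-29, and with trimmed mean factors it was called higher (limma adjusted p = 0.00952). Prkaa1, a subunit of the AMP-activated kinase that phosphorylates CRY, fell from 14.1 to 11.0 TPM, and Fbxw11, a ligase subunit that recognises PER, from 26.6 to 18.4 TPM, a log2 fold change of -0.50 against -0.23 in the authors' deposited table. Gsk3b rose from 71.2 to 79.2 TPM. Csnk2b rose from 42.0 to 68.0 TPM, yet the authors' deposited table gave -0.13 with an adjusted p of 0.352. Siah2, below the filter, averaged 0.313 TPM in WT and 0.416 TPM in iKO (exact two-sided permutation p = 0.486).

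Chromatin and RNA-binding partners of clock proteins include partners of ASH2L itself. Of 21 tested, 1 rose, 9 fell and 11 did not pass, at a median of -0.14, where 31.9% of all tested genes fell and 20.7% rose. The split depended on the scaling: 5 were called higher and 9 lower with trimmed mean factors, and 7 higher and 7 lower in the authors' deposited table. WDR5 sits in the ASH2L complexes and has been found with PER proteins, KMT2A methylates histones at clock promoters with CLOCK, and KDM5A is a demethylase that binds CLOCK and ARNTL; these 3 were singled out after their values were seen. Wdr5 (36.6 ± 0.887 and 38.0 ± 1.56 TPM in WT and iKO, SD, n = 4), Kmt2a (12.1 ± 0.812 and 11.1 ± 0.248 TPM) and Kdm5a (61.0 ± 1.93 and 59.2 ± 3.31 TPM) did not pass, at limma adjusted p-values of 0.280, 0.111 and 0.457. For Wdr5 the authors' deposited table gave 0.15 with an adjusted p of 0.00199, and with trimmed mean factors it was called higher (limma adjusted p = 0.0298). Hdac1, a histone deacetylase gene, fell from 106 ± 0.929 to 64.2 ± 3.26 TPM (SD, n = 4), and Mta2 and Chd4, of the same remodelling complex, from 173 to 143 TPM and from 63.6 to 53.0 TPM. Suv39h1, a histone methyltransferase gene found at Per promoters, fell from 42.2 to 33.3 TPM. Sin3a, a co-repressor gene, fell from 40.1 to 29.2 TPM, where the authors' deposited table gave -0.05 with an adjusted p of 0.382.

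Clock-controlled output genes, a list of 12, had 10 tested members, of which 1 rose, 6 fell and 3 did not pass, at a median of -0.25, where 31.9% of all tested genes fell and 20.7% rose. Usp2, a deubiquitinase gene and direct target of the clock in many tissues, fell from 71.8 ± 7.35 to 29.9 ± 3.63 TPM (SD, n = 4; log2 fold change -1.24, SE 0.0943, limma adjusted p = 8.38e-06). Tsc22d3, a leucine zipper gene, fell from 296 to 142 TPM, Klf9 from 22.8 to 15.8 TPM, Klf10 from 53.0 to 41.5 TPM and Noct, the nocturnin gene, from 10.3 to 7.43 TPM. Wee1, a cell cycle kinase gene with E-boxes known in mouse liver, stood at 12.5 TPM in both groups, and Nampt rose from 14.8 to 18.4 TPM. Avp, a neuropeptide gene of the hypothalamic clock, averaged 0.279 TPM in WT and was listed at 0 in every iKO library (exact two-sided permutation p = 0.143), and Prok2 stood at 0.541 and 0.722 TPM in iKO and WT (exact two-sided permutation p = 0.629).

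**Figure D4:**
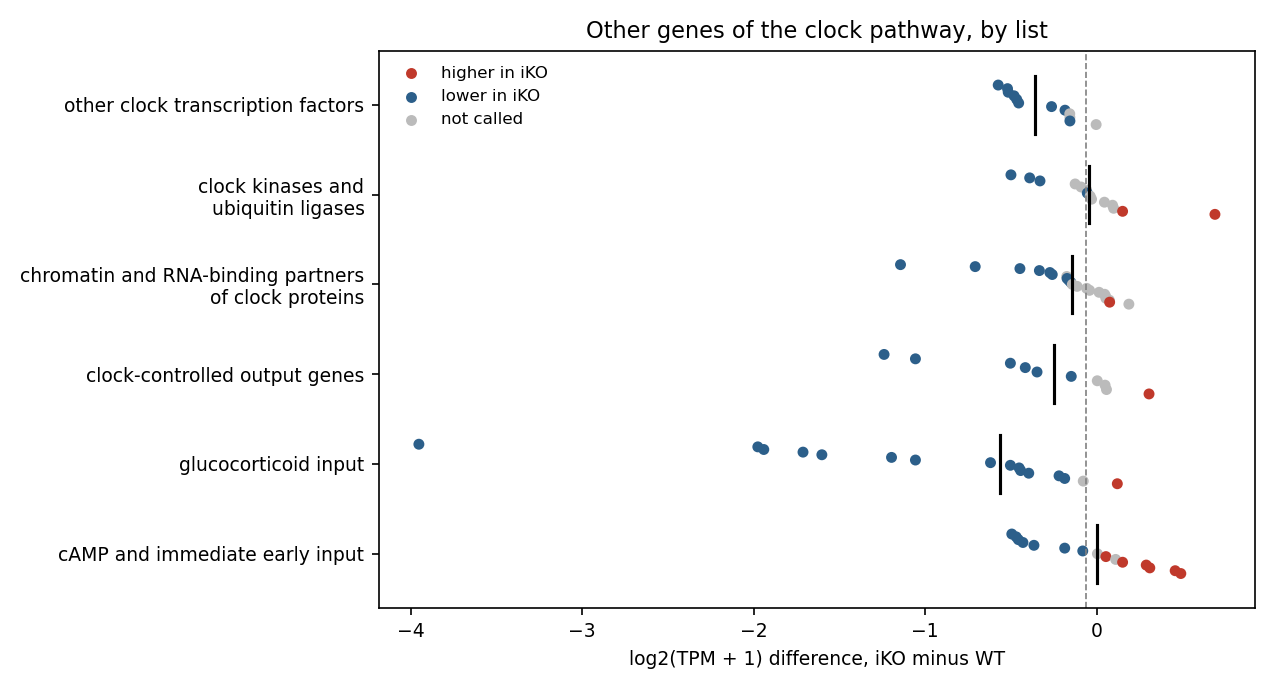
Difference of mean log2(TPM + 1), iKO minus WT (horizontal axis), for the tested genes of 6 lists; points are genes, blue called lower, red called higher and grey not called, the black bar is the list median and the dashed line the median of all tested genes. The medians run from -0.56 (glucocorticoid input) to 0.00 (cAMP and immediate early input).

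Glucocorticoids and cAMP signalling are both known to induce Per1, and their lists were not tested against each other. Of 16 tested glucocorticoid-responsive and receptor genes, 14 fell, 1 rose and 1 did not pass, at a median of -0.56, where 31.9% of all tested genes fell and 20.7% rose. This list too was chosen with earlier results of these data known, so nothing is read from its counts. Fkbp5, a co-chaperone gene and standard readout of the receptor, fell from 29.6 ± 1.84 to 8.31 ± 0.173 TPM (SD, n = 4), Mt1 from 290 to 94.8 TPM, Cdkn1a from 65.4 to 28.0 TPM and Sult1a1 from 10.4 to 1.88 TPM. Tsc22d3 and Klf9 stand in both this list and that of output genes. The receptor gene Nr3c1 fell from 24.0 ± 2.44 to 20.9 ± 0.679 TPM (SD, n = 4; limma adjusted p = 0.0488), a call lost in 11 of 16 alternatives, with adjusted p-values from 0.00771 to 0.162. Whether the lower Per1 goes with these genes was not tested.

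Genes of cAMP signalling and the immediate early response were called higher in 6 of 15 cases and lower in 7, with 2 not passing and a median of 0.00, where 31.9% of all tested genes fell and 20.7% rose. With trimmed mean factors the balance turned, to 8 higher and 5 lower. Fos fell from 7341 to 5300 TPM, Dusp1 from 753 to 558 TPM, Nr4a1 from 102 to 74.4 TPM, Fosb from 138 to 107 TPM and Arc from 41.1 to 28.9 TPM. Egr1 rose from 1265 to 1313 TPM and did not pass with quantile normalization (adjusted p = 0.138). Crtc1, a coactivator gene of CREB, rose from 13.3 to 19.2 TPM, and Sik1, a kinase gene that restrains it, from 1.63 to 2.59 TPM.

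Genes whose searched window held the letters of the E-box were called lower about as often as all genes with a window. Binding at these letters was not tested. Of 11359 tested genes with a promoter window, 32.5% were called lower, and of the 1292 whose window held CACGTG it was 32.7%. The share was 31.8% of 717 genes with CACGTT and 37.1% of 251 genes with TAGGTCA. It was 33.3% of 84 genes with TTATGTAA, 35.0% of 20 genes with TTACGTAA and 31.6% of 393 genes with TGACGTCA. The median log2 fold change was -0.056 for genes with CACGTG and -0.055 for all genes with a window.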

How the data were processed

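The deposited TPM table holds TPM values for 55385 genes in 8 libraries, computed by the authors; per the labels' protocols the RNA was amplified by Smart-Seq2 and sequenced as paired ends. The sources used here name no aligner, quantifier or build. The second table is the authors' own comparison: per the file headers it holds a mean normalized signal, a log2 fold change of iKO over WT with its standard error, a test score, a p-value and an adjusted p-value.

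From TPM, log2(TPM + 1) was tested with limma 3.58.1 (trend, robust; R 4.3.3) on genes that reached 1 TPM in 4 or more libraries, with Benjamini-Hochberg adjustment over all 16413 of them and a threshold of 0.05. The procedure was tested on simulated data. TPM keep no depth, so no counting intervals are given. The SE of a member is that of a difference of means, and that of other genes is limma's. Genes below the filter had an exact permutation test over the 70 assignments of the libraries, whose smallest p is 0.0286.

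The members and lists were chosen with earlier results of these data known. Named are all 10 members, Ash2l, the 12 other clock factors, and in each further list up to 5 called genes with the smallest p, and the 3 genes nearest to Arntl and Dbp; Csnk1e, Wdr5, Kmt2a, Kdm5a, Wee1, Nampt, Nr3c1, Egr1, Crtc1, Sik1, Siah2, Avp and Prok2 were added after their values were seen. List counts also cover list genes that are not named; some genes were left out of the lists altogether and are not reported here. Of the gene IDs, 98.4% were in GENCODE M21 (GRCm38). Alternatives were a pseudocount of 0.1 or 5, all genes unfiltered, genes averaging 5 TPM or more, quantile normalization, trimmed mean factors, a replicate block, leaving out each library, and the deposited comparison. Figures were drawn with matplotlib 3.10.9.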

Additional observations from a re-analysis of the deposited data

Results flagged for a closer look

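In 2 of 46 groups of 4 libraries, taken over the 10 clock genes, the 12 other clock transcription factors and the difference between the limbs, 1 library stood apart from the other 3 by Dixon's criterion. Rora was at 8.29 TPM in iKO replicate 2, below the other iKO libraries. Bhlhe40 was at 62.1 TPM in WT replicate 1, below the other WT libraries and still above every iKO library. About 1 group in 20 is flagged by chance.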

How the results depend on the processing

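All 10 clock genes kept a negative fold change under all 16 alternatives, and 9 were called under each. The median over the 10 genes was -0.42 in the main fit, -0.35 with a pseudocount of 5 and -0.35 with quantile normalization; with each library left out in turn it was -0.44 to -0.41. Single-gene fold changes moved by less than the spread between libraries in 136 of 160 cases. These include the unfiltered fit, the filter on average TPM and the replicate block, which by construction leave a fold change as it was. The other 24 all came from a changed pseudocount, trimmed mean factors, quantile normalization or the deposited comparison, and none from leaving out a library. The replicate numbers did not pair the libraries, since same-numbered libraries correlated at -0.0445 to 0.000694; with the replicate number as a block, 8097 genes were called instead of 8629, 9 clock genes and 57 genes of the 6 lists instead of 58. Over the 6 lists, 47 genes were lower and 11 higher in the main fit, 40 and 19 with trimmed mean factors, 45 and 12 with quantile normalization, and 43 and 21 in the deposited comparison. Of those 58, 44 were called, in either direction, under every alternative in which they were tested, and 4 changed sign in one. Ncor1 is among the 44 although it was called lower in the main fit and higher in the deposited comparison, at 0.08 (adjusted p = 0.0137). The difference between the limbs was 0.229, and leaving out 1 gene moved it to 0.364 (Arntl), 0.0950 (Clock), 0.187 (Per1), 0.266 (Per3), 0.151 (Nr1d1), 0.276 (Nr1d2) or 0.297 (Dbp); leaving out each library, added after seeing the data, kept its sign. The depth of each library is unknown. The authors' deposited mean normalized signal was 40.9 for Npas2, 6.18 for Siah2, 6.47 for Prok2 and 0.387 for Avp. It was 278 to 1834 for the clock genes other than Dbp. These low genes thus rest on a low signal, and how far this limits their values was not tested.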
